A study of Caenorhabditis elegans with 2 samples.

Results

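The nuclear genome of Caenorhabditis elegans holds 612 annotated tRNA genes, and 322 of them lie outside protein-coding genes. A tRNA gene was taken as outside when its span was not wholly within a protein-coding gene of the Ensembl annotation (WBcel235, the same assembly as ce11). The other 290 lie inside one. The 322 genes were described for contact with HMG-1.2, a chromatin protein with HMG boxes, the fold that binds and bends DNA. Contact was measured by chromatin immunoprecipitation and sequencing (ChIP-seq), which recovers DNA attached to a protein in fixed tissue.

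The study has 1 group of 2 samples, biological replicates 1 and 2, and no second condition. Both are whole young adult worms, 65 hours old, of strain RW12210. This strain carries the allele st12210, in which CRISPR inserted TY1::EGFP::3xFLAG into hmg-1.2 on chromosome III. Whether the replicates were separate cultures is not labelled. The worms had been synchronised by bleaching and starvation as L1 larvae. The description names a GFP antibody for the pull-down and the antibody field names hmg-1.2; control libraries were not analysed here. Whole animals mix germline and somatic cells, so a peak cannot be placed in a cell type, and sex was not collected.

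tRNA genes are transcribed by RNA polymerase III. Their promoter lies inside the gene, as an A box near the start and a B box further in, which the factor TFIIIC binds. TFIIIC brings TFIIIB to the DNA just upstream of the gene, and TFIIIB in turn recruits the polymerase, which stops at a run of T after the gene. Most tRNAs are encoded by several identical copies spread over the chromosomes.

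HMG-1.2 peaks of the conservative list stood at most of these genes. A gene was called bound when the summit of a peak, its highest point, fell in a window that starts 500 bp before the gene's 5′ end and stops 100 bp after it. In the authors' conservative list of 4149 peaks over both replicates, 249 of the 322 genes were bound, or 77.3% (95% exact binomial interval 72.4% to 81.8%, which covers counting over genes only and treats identical or neighbouring genes as independent). By the same rule 9.68% of the 19973 nuclear protein-coding genes were bound. In replicate 1's own list 224 members were bound (69.6%), against 6.91% of protein-coding genes, and in replicate 2's own list 246 members (76.4%), against 13.3%. Over the replicates the share was 73.0% ± 4.83 (SD, n = 2). No condition was compared, so no test was made; the classes below are set side by side with both replicates' values.

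The tRNA genes inside protein-coding genes gave nearly the same figure. Of the 290, 227 were bound (78.3%), 69.7% in replicate 1 and 79.3% in replicate 2. The tRNA pseudogenes outside protein-coding genes, relics of tRNA genes, gave 6 bound of 96 (6.25%, exact interval 2.33% to 13.1%). Those inside protein-coding genes gave 11 of 113 (9.73%). The protein-coding share of 9.68% lies within the interval of the former.

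The replicates called largely the same genes. Of the 249 bound members, 200 were bound in both replicates' own lists, 33 in replicate 2 alone and 14 in replicate 1 alone. The remaining 2 were in neither own list; they were C16D9.t4, a tyrosine tRNA gene, and sup-21, a tryptophan tRNA gene, named after their values were seen. Replicate lists differ in length, 3340 peaks for replicate 1 and 5333 for replicate 2, and the read depth behind each is unknown.

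Among the 202 members bound in both own lists, the rank of the peak was also similar. A peak's signal is the authors' value on a scale that is not stated, so it was used as a percentile within its own list. Each list's summit nearest to the gene was taken, so the 2 values need not be of the same peak. At the serine gene F42A10.t2, for example, they were at -177 bp (percentile 80.75) in replicate 1 and at 6 bp (0.83) in replicate 2. The median percentile was 62.0 in replicate 1 (quartiles 42.6 and 74.9) and 61.0 in replicate 2 (quartiles 45.1 and 71.5). Spearman's rho between the replicates was 0.75 across these 202 genes, given as a description because genes that share a peak enter more than 1 time.

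**Figure D1:**
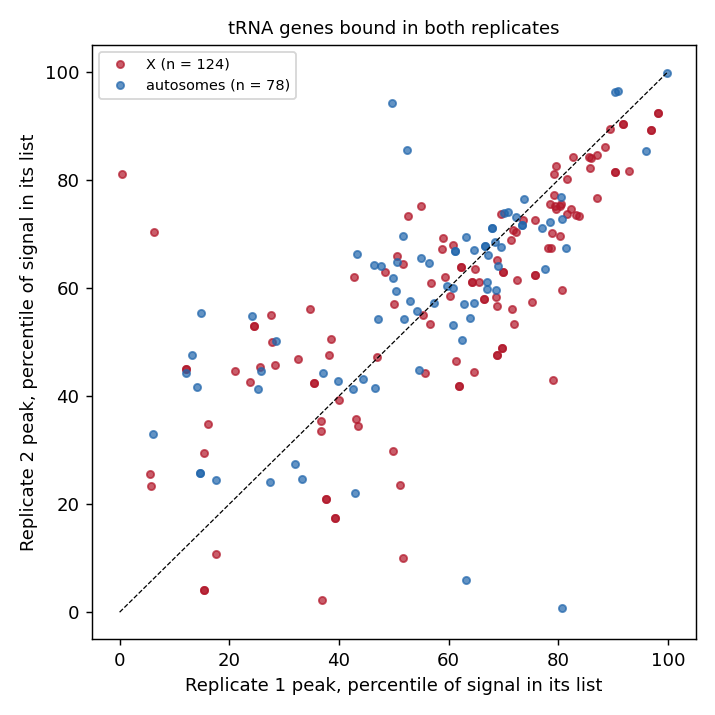
Percentile of peak signal within replicate 1's list (x axis) and within replicate 2's list (y axis) for the 202 tRNA genes bound in both, each point a gene, red on X (n = 124) and blue on autosomes (n = 78). Most points follow the dashed line of equal percentile, and a minority are low in one replicate and high in the other.

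Summits stood at the start of the tRNA gene. The nearest summit lay at a median of -12.0 bp from the 5′ end, where negative is upstream, with quartiles of -33.0 and 9.0 bp. Of the 249 bound members, 194 (77.9%) had it within 50 bp of the 5′ end, and 92 had it at or after the 5′ end. Only 6 lay more than 200 bp upstream. The position was alike in both libraries, with a median of -17.0 bp in replicate 1 and -10.0 bp in replicate 2. In the 202 members bound in both, the nearest summits of the 2 replicates lay a median of 17.5 bp apart. They lay at most 50 bp apart in 180 of these members (89.1%). The genes inside protein-coding genes had a median of -15.0 bp.

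**Figure D2:**
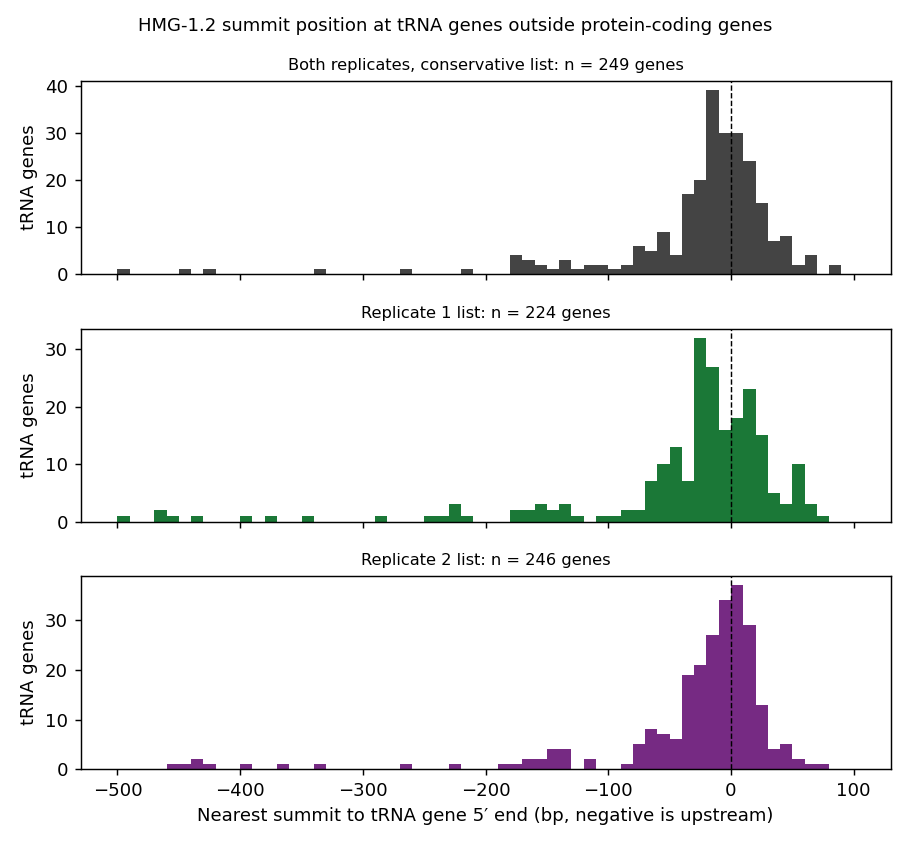
Histograms of the distance from the 5′ end of each bound tRNA gene to its nearest summit (x axis, bp, negative upstream; y axis, number of genes in bins of 10 bp) in the conservative list and in each replicate's list. All 3 panels pile up around 0, the dashed line, with medians of -12.0, -17.0 and -10.0 bp.

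The edges of the window decided few calls. Just inside the upstream limit were the glutamine gene C05E7.t2, with a summit at -496 bp, and the arginine gene F41D9.t2, at -442 bp. Just outside were the threonine gene C53D6.t1, at -600 bp, and the lysine gene K11E4.t3, at -708 bp. Downstream, the glycine gene F10C1.t1 and the serine gene F22F1.t4 were inside at 81 bp, and the glutamine gene C10G8.t1 at 179 bp and the methionine gene Y22D7AL.t3 at 202 bp were outside. A narrower window of 250 bp upstream and 50 bp downstream left 236 members bound (73.3%), against 6.07% of protein-coding genes. A wider one of 1000 and 200 bp gave 264 (82.0%), against 12.7%.

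Other peak lists and an overlap rule gave from 43.8% to 79.5%, each above the protein-coding share by the same count. Any overlap of a peak with the gene body held for 232 members (72%), against 9.12% of protein-coding genes. The authors' other thresholded list of 6058 peaks bound 256 members (79.5%), against 13.7%. Adding the 24 ranked peaks that had a passing score but were not in the conservative list left 249 bound, against 9.70%. Keeping only conservative peaks at or above the median signal left 141 (43.8%), against 5.19%.

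The peaks at these genes were of middling strength. They numbered 220, or 5.30% of the conservative list, with a median signal of 256.5 (quartiles 170.4 and 353.0) against 239.8 (quartiles 143.8 and 455.0) over the whole list. The members' range of signals was thus narrower. Of the 220, 119 (54.1%) were at or above the list's median, but 7 were among ranks 1 to 414, the top 10% of the list. Their median width was 275.5 bp, against 330.0 bp.

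Phenylalanine tRNA genes held 3 of the 10 strongest member peaks that were also found in both replicates, a grouping noted after the values were seen. Of the 322 members 8 encode that tRNA, and 5 of the 8 were bound (62.5%), with 50% in replicate 1 and 62.5% in replicate 2. That share is below the 77.3% of all members. Y66D12A.t1 had a signal of 1292, with 346.2 in replicate 1 and 932.2 in replicate 2, and its summit at -74 bp. Y39B6A.t9 had a signal of 1289, with 356.0 and 958.3, and its summit at -117 bp. C06G4.t1 had a signal of 841.4, with 92.64 and 745.9, and its summit at -335 bp. C06G4.t1 ranked 1680 of 3340 in replicate 1 and 315 of 5333 in replicate 2, so the replicates placed it differently. The sequence of Y66D12A.t1, on the plus strand at chrIII:11554825-11554897 (ce11; RefSeq genome sequence, as for all sequences here), is shown with matches to the box cores in capitals.
Y66D12A.t1: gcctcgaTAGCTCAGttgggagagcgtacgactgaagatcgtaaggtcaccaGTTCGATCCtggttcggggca
The earlier capitals match an A box core, TNGCNNAG, and the later ones a B box core, GTTCGANNC, where N is any base. C06G4.t1 is an exact copy of this gene.

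Both cores were common in the members. The A box core was found in 131 of the 322 genes (40.7%), starting within the first 10 bases in 127 of them, and the B box core in 235 (73.0%). Of all 72-bp windows of the nuclear genome, read on either strand, 6.53% held the A box core and 0.51% the B box core; on either strand the members gave 40.7% and 73.3%. The pseudogenes outside protein-coding genes, of which 6.25% were bound, held the A box core in 56.2% and the B box core in 70.8%.

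Bound and unbound members did not separate by these cores. Members with the A box core were bound in 75.6% (99 of 131) and those without it in 78.5% (150 of 191). Members with the B box core were bound in 76.2% (179 of 235) and those without in 80.5% (70 of 87). Many tRNA genes carry other versions of the boxes, so a missing match says only that these letters are not in the gene. A run of 4 T within 20 bp after the gene, the usual stop signal of the polymerase, was present in 315 members, of which 246 were bound; of the 7 without it 3 were bound.

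GC content differed in the flank before the gene and hardly elsewhere. The 50 bp upstream had a median GC content of 44.0% in bound and 38.0% in unbound members. The gene itself had 58.3% and 57.8%, and the 50 bp downstream 26.0% in both. Of the 43 members with an upstream GC content of at most 30%, 28 were bound (65.1%), 53.5% in replicate 1 and 60.5% in replicate 2. Of the 111 with 40% to 50%, 95 were bound (85.6%), 76.6% and 83.8%. Both replicates put the class of 40% to 50% above that of at most 30%. Between 30% and 40% it was 76 of 108 (70.4%), with 63.0% and 69.4%. Over 50% it was 50 of 60 (83.3%), with 80.0% and 86.7%, so the conservative list did not rise throughout.

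Members close to another tRNA gene were bound more often than distant ones in the conservative list and in both replicates' lists, but the order rests on how a peak is given to a gene. Of the 148 with another tRNA gene within 1 kb, 125 were bound (84.5%), with 79.1% in replicate 1 and 80.4% in replicate 2. Between 1 and 5 kb it was 33 of 45 (73.3%), with 60.0% and 73.3%. Over 5 kb it was 91 of 129 (70.5%), with 62.0% and 72.9%. The median distance to the nearest tRNA gene was 980.0 bp for bound and 6603 bp for unbound members.

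Close neighbours can be counted on 1 peak. In all, 58 members shared 29 peaks, never more than 2 members to a peak, and 16 members had 2 summits in their window. Giving each summit only to the gene with the nearest 5′ end left 213 members bound. The protein-coding share by this count was not computed. The order by distance then turned, to 92 of 148 (62.2%) within 1 kb of a tRNA gene and 121 of 174 (69.5%) farther off, against 84.5% and 71.3% by the window rule; this split was chosen after the data were seen. With any overlap of a peak with the gene body it was 73.6% and 70.7%, and with peaks at or above the median signal 43.9% and 43.7%. The near share stayed higher by 11.7 percentage points in the other thresholded list, 11.9 with the narrow window and 17.1 with the wide one. Giving each summit to the nearest 5′ end took the near count from 125 to 92 and the distant count from 124 to 121. The higher share of close neighbours thus held under the window rule in these lists, but not under every count.

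Neighbouring members within 1 kb of each other formed 79 pairs, given here by layout. In 30 divergent pairs, whose 5′ ends face each other, both genes were bound in 24, and 21 of these shared a peak. In the 33 tandem pairs both were bound in 25 and 8 shared a peak. In the 16 convergent pairs, whose 3′ ends face each other, both were bound in 7, 1 gene was bound in 8, and none shared a peak. The window reaches further upstream than downstream, so a peak between divergent genes falls in both windows more easily than one between convergent genes.

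**Figure D3:**
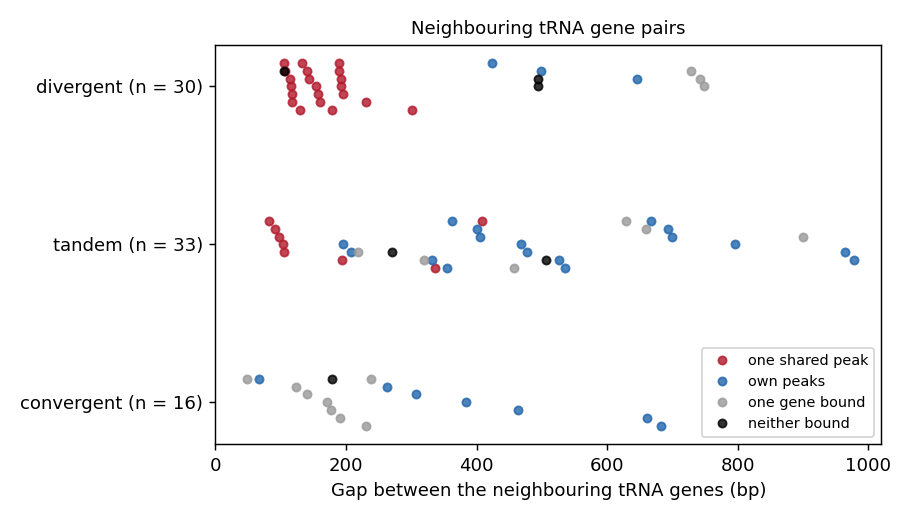
Gap between neighbouring tRNA genes within 1 kb (x axis, bp) for divergent (n = 30), tandem (n = 33) and convergent (n = 16) pairs, each point a pair, coloured by which genes were bound and whether 1 peak served both. Shared peaks sit in divergent pairs with gaps of at most 301 bp and in a few tandem pairs.

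Most shared divergent peaks, 18 of 21, had their summit in the space between the genes, and in 3 it lay at or past the 5′ end of one gene. The gap in the 21 such pairs had a median of 154.0 bp and was at most 301 bp, and the summit lay a median of 34.0 bp from the midpoint between the 5′ ends. Of the 30 divergent pairs, 26 encode the same amino acid on both sides. In the divergent pairs bound by separate peaks the median gap was 499.0 bp.

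Of the 10 strongest member peaks found in both replicates, 3 were of this kind, all on X. The peak between the glutamate gene M02F4.t2 and the glycine gene M02F4.t1 had a signal of 1702, with 1055 in replicate 1 and 629.3 in replicate 2. The serine pair C53C7.t2 and C53C7.t1 had 1288, with 783.1 and 503.4. The proline pair F46G11.t2 and F46G11.t1 had 953.7, with 402.7 and 550.1. The summit of the first pair was nearly central, at -59 bp from one gene and -58 bp from the other, and that of the third was off centre, at -63 and -127 bp. The 3 spacers are printed on the plus strand, to show the DNA under a shared summit, with the summit base and 10 bases either side in capitals, at chrX:3036048-3036163, chrX:13046448-13046577 and chrX:5801283-5801471 of ce11.
M02F4.t2 to M02F4.t1: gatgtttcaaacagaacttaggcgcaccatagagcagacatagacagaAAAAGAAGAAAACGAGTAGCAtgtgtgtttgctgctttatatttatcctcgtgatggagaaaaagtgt
C53C7.t2 to C53C7.t1: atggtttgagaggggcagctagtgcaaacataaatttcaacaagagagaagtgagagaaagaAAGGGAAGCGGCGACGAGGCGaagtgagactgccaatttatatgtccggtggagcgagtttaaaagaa
F46G11.t2 to F46G11.t1: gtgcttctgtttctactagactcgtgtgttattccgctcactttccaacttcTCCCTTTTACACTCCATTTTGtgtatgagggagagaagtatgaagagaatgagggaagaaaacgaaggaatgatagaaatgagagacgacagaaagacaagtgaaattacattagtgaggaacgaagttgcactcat

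Other strong member peaks stood at single genes. The lysine gene M01E5.t1 on chromosome I had a signal of 1053 at -54 bp, the proline gene Y59E1B.t2 on X had 839.8 at -60 bp, and the tyrosine gene R11.t1 on X had 790.7 at -12 bp. Each was bound in both replicates.

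The strongest member peak lay away from its gene. F58D5.t1, a valine tRNA gene on chromosome I (12065865 to 12065937), had a peak of signal 4343 at rank 8 of the list, with the summit at -425 bp. Its signal was 1977 in replicate 1 and 2401 in replicate 2, ranks 6 and 11 of their lists. The protein-coding 5′ end nearest to this tRNA gene, that of F58D5.2 on the opposite strand, lay 497 bp from it. The summit itself lay in the window of no protein-coding gene.

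Distance to protein-coding genes made little difference. Of the 54 members within 500 bp of a protein-coding 5′ end, 41 were bound (75.9%), with 68.5% in replicate 1 and 81.5% in replicate 2. Between 500 and 2000 bp it was 100 of 129 (77.5%), with 67.4% and 75.2%. Beyond 2 kb it was 108 of 139 (77.7%), with 71.9% and 75.5%. The gaps between these classes are smaller than those between replicates.

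Shares by the distance to the body of the nearest protein-coding gene were also close. With a gap of up to 500 bp 99 of 129 members were bound (76.7%), from 500 to 2000 bp 85 of 112 (75.9%), and over 2 kb 64 of 78 (82.1%). Of the 220 member peaks, 36 (16.4%) had a summit that also lay in the window of a protein-coding gene. The share over all conservative peaks was not computed, so this value has no background here. Of the 249 bound members, 208 had a summit in no such window. The median signal was 255.3 for the other 184 peaks and 266.6 for these 36. The members that overlap a protein-coding gene in part were 3, of which Y73F8A.t3 was bound and Y73F8A.t4 and Y17G9A.t1 were not.

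Single genes far from any neighbour showed both outcomes. The member farthest from another tRNA gene, the methionine gene T28F2.t1 on chromosome I, 1366413 bp away, was bound at -20 bp with a signal of 258.4. The next farthest, C53D6.t1 and C10G8.t1, were not. Farthest from a protein-coding 5′ end was the arginine gene Y75D11A.t2, 13761 bp away and unbound in both replicates. The next were the glycine gene Y51H4A.t3, 12660 bp away, and the glutamate gene M01E10.t2, 11373 bp away, both bound, at 6 and -27 bp.

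The share bound ran from 50% on V to 100% on II. The X chromosome held 180 of the 322 members (55.9%), against 96 of the 290 inside genes (33.1%), and 145 of the 180 were bound (80.6%), with 76.7% in replicate 1 and 77.8% in replicate 2. All 26 members on II were bound in the conservative list, 84.6% and 92.3% in the replicates, and 19 of 22 on III. On IV it was 26 of 37 (70.3%) and on I 18 of 27 (66.7%), where the replicates stood far apart at 48.1% and 81.5%.

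Chromosome V had the lowest share, 15 of 30 (50%, exact interval 31.3% to 68.7%). It was the lowest chromosome in both replicates too, at 33.3% and 50%. Among its members with over 75% unique sequence, defined below, 13 of 26 were bound, with 26.9% and 57.7%, so the replicates then differ widely.

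**Figure D4:**
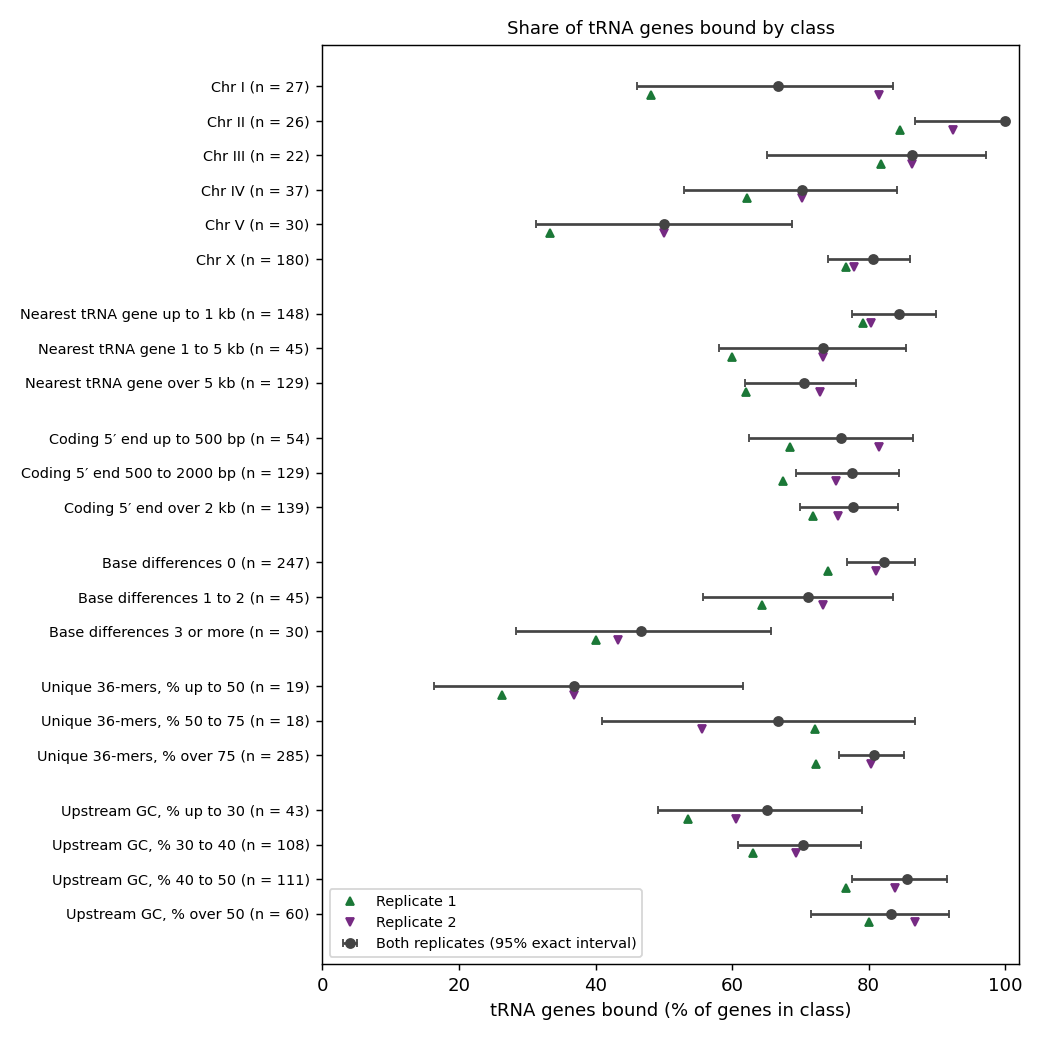
Share of tRNA genes bound (x axis, percent) by chromosome, distance to the nearest tRNA gene, distance to the nearest protein-coding 5′ end, base differences from the nearest tRNA gene of the same isotype, unique 36-mers and upstream GC content. Circles with bars are the conservative list with 95% exact intervals, triangles are the replicates' own lists; the lowest shares are at genes with at most 50% unique 36-mers (36.8%) and with 3 or more differences (46.7%).

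By the amino acid carried, most kinds were bound at most of their genes. All 14 aspartate genes were bound (10 in replicate 1 and 14 in replicate 2), and 18 of 19 alanine, 18 of 20 proline, 18 of 20 lysine and 25 of 28 glycine genes. The lowest among kinds with at least 10 members were histidine, 6 of 13 (46.2%, exact interval 19.2% to 74.9%), and methionine, 7 of 13 (53.8%, 25.1% to 80.8%). Histidine gave 5 and 6 of 13 in the replicates, and methionine 6 and 8. The unbound histidine genes include the identical F28H6.t7, t3, t6 and t4 of 1 run. The windows of these genes had at most 1.41% unique sequence, defined below. Methionine tRNA includes the initiator that starts every protein, which the annotation used here does not tell from the elongator form.

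**Figure D5:**
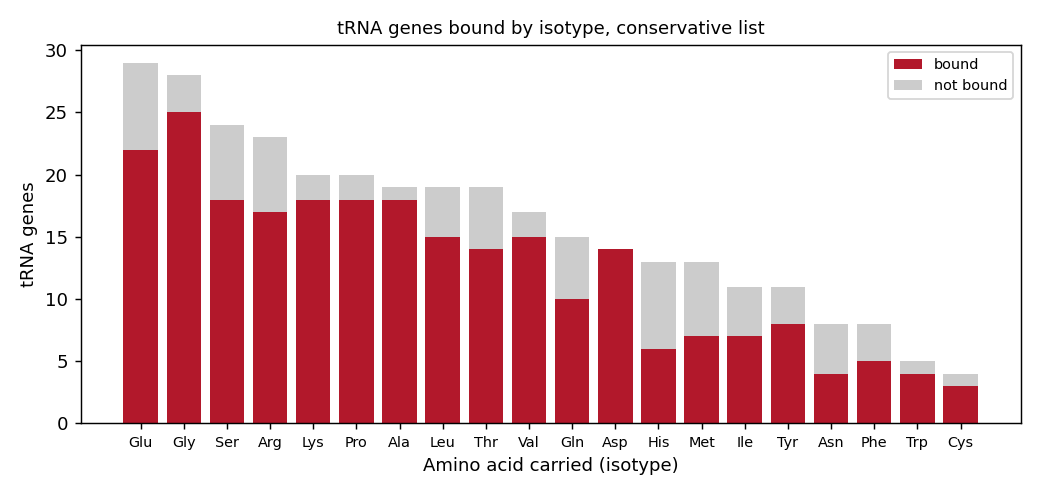
Number of tRNA genes (y axis) bound and not bound in the conservative list for each of 20 amino acids carried (x axis), ordered by the number of genes. Glutamate has the most genes, 22 of 29 bound, and histidine and asparagine have the most grey relative to red.

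Copies of 1 sequence were often bound together, but not always. The 322 genes have 130 distinct sequences, of which 42 are shared by 2 or more members. All copies were bound for 19 of the 42, some for 21 and none for 2. The glycine sequence with 17 members was bound at all 17 in the conservative list, at 13 in replicate 1 and at 17 in replicate 2. The most common proline sequence was bound at 13 of 13 in all 3 lists, while the glutamate sequence with 17 members was bound at 13 in the conservative list and in replicate 1 and at 14 in replicate 2.

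The proline gene F46G11.t1 (chrX:5801472-5801543, plus strand) carries that proline sequence, and neither core matches it.
F46G11.t1: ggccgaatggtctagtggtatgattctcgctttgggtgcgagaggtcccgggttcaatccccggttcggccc
Its B box region reads gttcaatcc in place of the searched letters, and all 13 of its copies among the members were bound.

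Genes with a unique sequence were bound less often than members of families in every list. Where the gene was identical to another tRNA gene of its isotype, 203 of 247 were bound (82.2%), with 74.1% and 81.0% in the replicates. With 1 or 2 base differences from the nearest it was 32 of 45 (71.1%), with 64.4% and 73.3%. With 3 or more it was 14 of 30 (46.7%, exact interval 28.3% to 65.7%), with 40% and 43.3%. The replicates of the last class stood below both replicates of the first.

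The number of exact copies in the genome ran the same way at its ends. Genes with a single copy were bound at 46 of 75 (61.3%), those with 2 to 5 copies at 33 of 42, with 6 to 20 at 117 of 151, and with more than 20 at 53 of 54 (98.1%). In the last class replicate 1 gave 83.3% and replicate 2 all 54.

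Pairs of genes of 1 isotype with opposite outcomes show what such differences look like. Y40H7A.t2 and Y40H7A.t1 are histidine genes on IV that converge on each other across 238 bp; they and the proline gene C18A11.t1 below were picked after their values were seen. Y40H7A.t2 (chrIV:15187654-15187725, minus strand) had a summit at -14 bp with a signal of 185.6, absent from replicate 1's list and 125.8 in replicate 2. Y40H7A.t1 (chrIV:15187344-15187415, plus strand) had no peak in the conservative list or in any ranked list. Counted from 1 at the 5′ end, they differ by C55A (Y40H7A.t2 to Y40H7A.t1), which falls in the B box core, in capitals.
Y40H7A.t2: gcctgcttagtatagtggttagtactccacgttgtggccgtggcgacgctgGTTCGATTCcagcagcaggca
Y40H7A.t1: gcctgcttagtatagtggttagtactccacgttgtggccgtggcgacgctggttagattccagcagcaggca
Y40H7A.t1 also had the less unique surroundings, with 50.4% unique 36-mers in its window against 91.5%, and the part of either difference was not tested.

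The glutamate genes C39D10.t1 (chrX:7906585-7906656, plus strand) and F52E10.t2 (chrX:16274498-16274569, plus strand) differ by G9T, G69A and A72T. The bound C39D10.t1 had a summit at 3 bp with a signal of 153.7, 55.18 in replicate 1 and 96.89 in replicate 2. The unbound F52E10.t2 had only a ranked peak of signal 40.70 and score 45. Both hold the B box core.
C39D10.t1: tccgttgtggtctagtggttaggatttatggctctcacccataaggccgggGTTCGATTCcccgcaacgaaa
F52E10.t2: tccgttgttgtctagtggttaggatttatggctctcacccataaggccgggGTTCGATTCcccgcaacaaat

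The proline genes Y59E1B.t2 (chrX:1880817-1880888, minus strand) and C18A11.t1 (chrX:8037507-8037578, plus strand) differ at 12 positions. The former was among the strongest members, with 325.1 in replicate 1 and 515.3 in replicate 2. The latter was unbound, with a ranked peak of signal 86.89 and score 792. It has matches to both cores, some of them away from the usual places.
Y59E1B.t2: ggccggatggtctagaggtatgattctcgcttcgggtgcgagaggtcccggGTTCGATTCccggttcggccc
C18A11.t1: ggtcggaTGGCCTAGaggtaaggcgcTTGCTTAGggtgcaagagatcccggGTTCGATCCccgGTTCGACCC

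Members in the most repeated DNA, where a read may match several sites, were bound less often in each list. For each gene, the share of 36-base stretches in its window that occur 1 time in the genome was computed; the sources used here give neither the read length nor the handling of repeated reads. With at most 50% unique stretches 7 of 19 members were bound (36.8%, exact interval 16.3% to 61.6%), with 26.3% and 36.8% in the replicates. With 50% to 75% it was 12 of 18 (66.7%), with 72.2% and 55.6%. With over 75% it was 230 of 285 (80.7%), with 72.3% and 80.4%, so these last classes were level in replicate 1.

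Next, members were restricted to those with over 75% unique stretches, a choice made after the data were seen. Under the window rule, the classes compared in this paragraph kept their order. They were split by tRNA distance, base differences, upstream GC content, copy number and X against autosomes. Within 1 kb of a tRNA gene 114 of 126 were bound (90.5%), with 82.5% and 88.1% in the replicates, and beyond 5 kb 84 of 116 (72.4%), with 64.7% and 74.1%. Genes identical to another gave 188 of 221 (85.1%), with 76.5% and 84.2%, and those with 3 or more differences 13 of 25 (52.0%), with 44.0% and 48.0%. Members with at most 30% upstream GC gave 23 of 36 (63.9%) and those with 40% to 50% gave 90 of 104 (86.5%). Single-copy genes gave 42 of 64 (65.6%) and those with more than 20 copies 48 of 49 (98%). X gave 84.4% and the autosomes 76.0%, against 80.6% and 73.2% over all members. The autosomes differed among themselves: they include V, with 13 of 26 here. Over all members II (100%) and III (86.4%) stood above X.

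A histidine run on X shows identical genes with both outcomes. F28H6.t2, t7, t3, t6, t4 and t5 follow each other with gaps of 177 to 494 bp and share 1 sequence, printed from F28H6.t2 (chrX:14135045-14135116, plus strand) with its B box core in capitals.
F28H6.t2: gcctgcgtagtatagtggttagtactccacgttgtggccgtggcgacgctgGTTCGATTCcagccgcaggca
The outer genes were bound. F28H6.t2 had a summit at 23 bp with a signal of 253.1, 103.3 in replicate 1 and 146.2 in replicate 2. F28H6.t5 had one at 21 bp with 204.9, 76.64 in replicate 1 and 123.6 in replicate 2. The 4 genes between them were bound in neither the conservative list nor a replicate's own list. The windows of the outer genes had 89.0% and 82.5% unique 36-mers, and those of the inner genes 0% to 1.41%.

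Phenylalanine and asparagine genes gave similar cases, noted after their values were seen. T25D1.t2 and T27B1.t1 are exact copies of the strongly bound Y66D12A.t1 and were unbound in the conservative list and in both replicates, with 26.9% and 31.6% unique 36-mers against 91.0%. In asparagine genes, F57G8.t4 and F57G8.t1 shared a peak of signal 159.0, with 105.5 in replicate 1 and none in replicate 2, and the identical F57G8.t3 and F57G8.t2 nearby were unbound in the conservative list, with 53.4% and 60.2% against 59.5% for the bound pair. F57G8.t3 was also called in replicate 1, with 85.26 at -379 bp, so in that list it does not differ in outcome from the bound pair.

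A run of mixed kinds on X was bound throughout. F22F1.t2 to F22F1.t7 encode serine, aspartate, serine, aspartate, methionine and isoleucine tRNAs, and each had a conservative summit within 81 bp of its 5′ end. Signals were modest, from 115.1 at F22F1.t5 to 294.5 at F22F1.t7. F22F1.t2 and F22F1.t4 were absent from replicate 2's list. F22F1.t3 and F22F1.t5 were called in replicate 1 only through summits at -250 and -239 bp, which are the peaks of F22F1.t2 and F22F1.t4, and in replicate 2 through summits at -3 bp each. F22F1.t6 and F22F1.t7 were called at their 5′ end in both. On chromosome I, C12C8.t5 and C12C8.t2, divergent glycine genes in a run with 2 genes inside a protein-coding gene, shared a peak of signal 175.6 that was in replicate 2 (123.1) and not in replicate 1.

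Glutamate is the largest kind with both outcomes, 22 bound of 29. Signals of the bound genes ran from 92.16 at F15A8.t1 to 1702 at M02F4.t2. The genes named rte give a sample of the kind. rte-1 had 550.3, with 194.8 in replicate 1 and 351.1 in replicate 2. rte-4 had 386.6, with 148.7 and 243.9, and rte-3 had 241.9, with 93.18 and 152.3. rte-2 had 229.5, with none in replicate 1 and 139.2 in replicate 2. rte-5, with the same sequence as the other 4 and 87.8% unique 36-mers, was unbound in both replicates and had no ranked peak in its window. C39D10.t2, another exact copy, with 91.9%, was the same.

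Tryptophan tRNA genes include sup genes, known in the worm as sources of nonsense suppressors. sup-24 had a signal of 325.1 at -17 bp, with 126.8 in replicate 1 and 197.9 in replicate 2. sup-29 had 104.4 and sup-21 124.9, the former in replicate 2 alone (71.11) and the latter in neither own list. Of the 5 tryptophan genes 4 were bound; these genes too were named after their values were seen.

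The 73 unbound members were not all empty. In the ranked list over both replicates, which holds 52039 peaks before the threshold, 28 of them had a peak in the window and 45 had none. The signals of these 28 ran from 16.67 to 144.8 with a median of 74.99, against a lowest value of 88.19 among the bound members' peaks. None of the 28 had a score at or above 830, the lowest in the conservative list. In the replicates' own thresholded lists 52 of the 73 were in neither, 11 in replicate 2 alone, 8 in replicate 1 alone and 2 in both, Y53C10A.t3 and F38G1.t1. Unbound members with no peak in any of these lists, ranked ones of each replicate included, numbered 29.

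The unbound members with the highest ranked signals had scores from 341 to 824, under the lowest conservative score of 830. The glutamate gene T23H4.t1 had a ranked signal of 144.8 and a score of 803, and was called in replicate 2 with 116.1. Y53C10A.t3 had 129.2 and a score of 679, and was called in both replicates, with 63.67 at -38 bp in replicate 1 and 110.1 at -269 bp in replicate 2. These summits lie apart, so the 2 calls are not the same place. The asparagine gene F57G8.t3 had 116.8 and a score of 341, and the glutamate gene F52E10.t4 104.3 and a score of 689, both called in replicate 1 alone. The glutamine gene K02E11.t1 had 101.1 and a score of 824, and was called in replicate 2 alone.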

How the data were processed

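HMG-1.2 ChIP-seq peak lists of 2 replicates were used as deposited. Per the labels they are on ce11. Aligner, peak caller and read depth were not named by any label or header used. The deposited score of a peak comes from the irreproducible discovery rate and is capped at 1000. The deposited signal is the authors' value on an unstated scale, used only within 1 list; the deposited summit offset gave the position. The lists over both replicates were made by the authors, and how replicates were combined is not stated beyond their names.

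Genes came from Ensembl release 115 and amino acids carried from RefSeq, in which 2 members have none. Anticodons are not in these sources, so the named family with both outcomes, glutamate, was formed by amino acid. Counts over copies of a sequence grouped genes of identical sequence. Members and classes were chosen with earlier results of these data known. Genes named were the members of the 10 strongest member peaks overlapping a peak of both replicates, the 5 unbound members with the highest ranked signal, the 3 longest runs, the 3 most distant by each measure, the members nearest to the window limits and those of the largest family with both outcomes. Scripts in Python 3.11.15 (pandas 2.3.3, numpy 2.4.6, scipy 1.17.1, matplotlib 3.10.9) were checked on simulated peaks. Intervals are Clopper-Pearson and cover counting over genes only. Alternatives were other lists, windows, overlap rules and each replicate alone.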

Additional observations from a re-analysis of the deposited data

How the results depend on the processing

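Over the 8 results and 68 alternatives, 57 stayed within 1.5 times the main count, or within the replicate spread for a median, 11 moved and 0 reversed. A count could be labelled moved only by falling, since every class holds fewer than 1.5 times its bound genes. For a rise in a count the label was thus fixed in advance. Only the median summit distance could be labelled reversed, so that label does not cover the order of classes. With peaks at or above the median signal, the bound members numbered 141 in place of 249, 65 in place of 125 within 1 kb of a tRNA gene, 76 in place of 124 farther off, 27 in place of 41 within 500 bp of a protein-coding 5′ end, 114 in place of 208 farther off, and 120 in place of 227 for tRNA genes inside protein-coding genes. This follows from keeping fewer peaks. The median summit distance was then -20.0 bp and the median signal percentile of bound peaks 64.4, against 53 in the main list. The percentile was 66 in the other thresholded list, which is longer; the cause was not tested. Leaving out each replicate gave 224 to 246 bound members, a median distance of -17.0 to -10.0 bp and a percentile of 55.8 to 59.9. By class the counts were 117 to 119 within 1 kb and 107 to 127 farther off, 37 to 44 within 500 bp and 187 to 202 farther off, and 202 to 230 inside genes. With members over 75% unique in their window, an alternative chosen after the data were seen, 230 were bound. Near members exceeded distant ones by 13.2 percentage points in the main list, by 2.96 with gene-body overlap and by 0.24 with peaks at or above the median signal; with each summit given to the nearest 5′ end the difference was -7.38. No paired analysis was possible because there is 1 group and no test between groups. Depth is unknown, so an unbound gene is one with no called peak, not one shown to lack the protein.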
